A study of Mus musculus with 10 samples.

Results

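Cadherins are calcium-dependent adhesion proteins whose extracellular repeats bind cadherins on neighbouring cells. The cytoplasmic tail of a classical cadherin binds beta-catenin and delta-catenin, and alpha-catenin then links the complex to actin. In skeletal muscle the family is known for adhesion and fusion of myoblasts, for holding satellite cells against the fiber, and for junctions of vessels and connective tissue. The 5 genes described here were Cdh4 (R-cadherin, a classical cadherin closely related to N-cadherin), Cdh2 (N-cadherin, of myoblasts and the satellite cell niche), Cdh11 (OB-cadherin, of mesenchymal cells), Cdh13 (T-cadherin, which is anchored by a lipid, has no cytoplasmic tail and binds adiponectin) and Cdh15 (M-cadherin, of satellite cells and myoblasts). They are 5 of 20009 genes with a count. Cdh4 was picked for its excess in TA in these data, so its difference between the muscles is described without a test, and the other 4 were taken as cadherins known from muscle.

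The libraries came from soleus, a slow-twitch muscle of the calf, and from the fast-twitch tibialis anterior (TA) at the front of the shin. All mice were wild type, and each muscle had 2 female and 3 male libraries of total RNA from whole muscle. The labels name neither strain nor age. The myosin genes separated the muscles as labelled. Myh7, the slow myosin heavy chain, averaged 2394 CPM (counts scaled by library size) in soleus and 0.462 CPM in TA, and Myh4, the IIb form, averaged 0.234 CPM in soleus and 1459 CPM in TA.

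Totals ran from 726075 to 961237 counts per soleus library and from 784233 to 939623 per TA library, so 1 count was worth 1.01 to 1.34 CPM. One library stood apart. Soleus female 2 listed 22862 transcripts, against 14993 to 16575 in the other 9 libraries, and held 5.31% of its counts outside Gm20594 and Cep295 on retained introns and processed transcripts, against at most 2.42% in the others. Several values that rest on it are given below with and without it, though not all.

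The counts of Cdh4 fell almost wholly on its long coding transcript. The gene lies on chromosome 2 (GRCm38, 179442431 to 179899373, plus strand) and has 6 annotated transcripts, of which 3 had a count. The transcript ENSMUST00000000314, with 16 exons and 2739 coding bases, held 177 of 179 counts in TA (98.9%, exact 95% interval 96.0% to 99.9%, counting error only) and all 3 counts in soleus. A shorter coding transcript of 6 exons, ENSMUST00000108911, held 1 count, in TA. It has only 337 31-base words found in no other transcript, against 4940 in the long one. The share of counts is not scaled for this, so it does not measure how much of each transcript was present. The sequences below show where the long and the short coding transcript part, since reads across or beyond that point differ between them. The long one also starts further upstream, at 179442431 against 179442622. Each line runs 5′ to 3′ on the plus strand, with 30 shared coding bases in lower case (chr2:179847335-179847364) and the next 60 bases of each transcript, which come from different genome positions, in capitals. The first 2 capitals are the same in both. The long transcript goes on in its next exon (chr2:179860117-179860176), and the short one reads on into the intron (chr2:179847365-179847424).
ENSMUST00000000314: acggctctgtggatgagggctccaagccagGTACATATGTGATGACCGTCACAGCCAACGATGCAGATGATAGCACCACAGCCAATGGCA
ENSMUST00000108911: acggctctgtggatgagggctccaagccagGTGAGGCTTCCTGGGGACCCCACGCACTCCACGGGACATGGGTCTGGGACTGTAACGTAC

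Of the 31-base words of the long Cdh4 transcript, 99.9% occurred in no transcript of another gene, so few of its reads could be shared with another annotated gene. No gene that overlaps Cdh4 shares an exon with it. The processed pseudogene Gm14300 lies within its span on the opposite strand and had 16 counts in soleus and 3 in TA, the reverse of the order for Cdh4.

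Cdh4 was near the detection limit in soleus and was read in every TA library. In soleus the females had 0 and 1.14 CPM and the males 0, 0 and 2.46 CPM, which is 3 counts over 5 libraries. In TA the females had 22.1 and 39.2 CPM and the males 33.8, 44.0 and 61.3 CPM, which is 179 counts. The lowest TA library was thus far above the highest soleus library, and 3 of the 5 soleus libraries had no count. The level averaged 0.720 ± 1.09 CPM in soleus and 40.1 ± 14.4 CPM in TA (SD, n = 5 each). With so few counts in soleus the size of the difference is loose: the ratio, given here as TA over soleus, was 54.1 with a 95% counting interval of 18.2 to 265. That interval covers counting error only, not the picking of the gene or the spread between libraries, and is no test. The fitted log2 value depends on the prior count used and is not a bound. Genes called higher in TA were 11% of all those tested, from which nothing is read here, since the gene was picked on this contrast. In whole muscle, fewer cells that express a gene and less of its RNA per cell cannot be told apart.

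**Figure D1:**
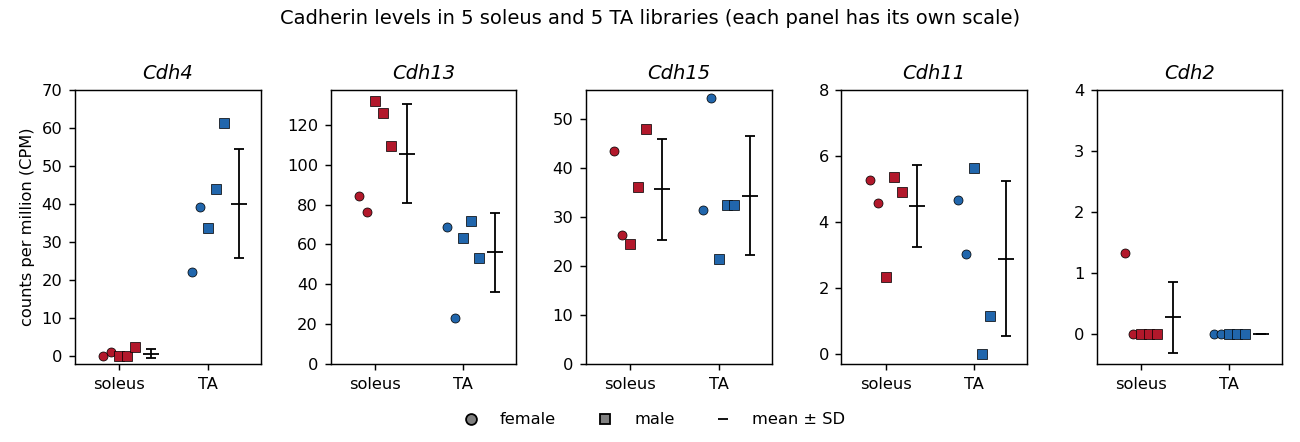
Level in CPM (vertical axis, own scale in each panel) of the 5 cadherins in soleus (left, red) and TA (right, blue), 1 point per library, circles female and squares male, with the mean ± SD of 5 libraries beside them. Cdh4 is at 0 to 2.46 CPM in soleus and 22.1 to 61.3 CPM in TA, Cdh13 is higher in soleus without overlap, and Cdh15, Cdh11 and Cdh2 overlap between the muscles.

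Among the other 4 members, Cdh13 was higher in soleus, Cdh15 did not differ beyond the spread, and Cdh11 and Cdh2 had too few counts to be tested. A filter on low counts (filterByExpr) left 5115 genes and kept 3 of the 5 members: Cdh4, which passed only through its TA libraries, Cdh13 and Cdh15. Of the 2 tested members other than Cdh4, 1 passed at an adjusted p under 0.05, and so did 1 at an unadjusted p under 0.05. Across all genes tested 22% passed the first threshold and 33.7% the second. With 2 genes, that count says nothing about the family. Each fold change below is on the log2 scale, soleus divided by TA, and is followed by an approximate standard error (SE). This SE is the absolute log2 fold change divided by the square root of the edgeR F statistic. Adjusted p-values are by Benjamini-Hochberg over the 5115 genes.

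Cdh13 (chromosome 8, 118283733 to 119324921, plus strand) had the highest mean level per length of the 5 in both muscles. In soleus its level was 84.3 and 76.5 CPM in females and 132, 126 and 109 CPM in males. In TA it was 68.6 and 23.1 CPM in females and 63.1, 71.8 and 53.2 CPM in males. The groups did not overlap, though the margin between soleus female 2 and TA male 2 was narrow, and 15.1% of all tested genes had groups that did not overlap.

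The mean level of Cdh13 was 106 ± 24.6 CPM in soleus and 56.0 ± 19.7 CPM in TA (SD, n = 5 each), a log2 fold change of 0.91 (SE 0.23, edgeR adjusted p = 0.0131). It was higher in soleus in 5 of 5 pairs of equal sex and replicate number. The call held in all 19 alternative fits, with fold changes from 0.74 to 1.15 and adjusted p from 0.00142 to 0.0408. The value was 0.97 without soleus female 2.

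The counts of Cdh13 came mostly from its coding transcript of 14 exons, with 403 of 427 counts in soleus and 235 of 246 in TA. The other counts fell on transcripts annotated as retained introns or as processed, and soleus female 2 had the most of them. There they made up 14 of 67 counts (20.9%, exact 95% interval 11.9% to 32.6%), against 1 to 5 counts in each other library. With coding transcripts alone the log2 fold change was 0.91 again (edgeR adjusted p = 0.0167, within the range given above).

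Genes of vessels, where Cdh13 is also known, lay the other way. Cdh5 (VE-cadherin, the junction cadherin of endothelium) was the only one of 18 other cadherins on the list with enough counts to be tested, and it was higher in TA. Its level in soleus was 132 and 166 CPM in females and 180, 211 and 138 CPM in males. In TA it was 332 and 183 CPM in females and 492, 641 and 329 CPM in males. The fold change was -1.20 (SE 0.24, edgeR adjusted p = 0.00338), and TA female 2, which also had the lowest Cdh13 of all libraries, lay within the soleus range.

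As a description of the muscles and not of the genes, the ratio of Cdh13 to Cdh5 CPM within a library ran from 0.462 up to 0.795 in soleus, against 0.112 to 0.207 in TA. Of 8 endothelial markers, Cdh5 among them, 4 were tested. Of these 0 passed as higher in soleus and 3, Cdh5 included, as higher in TA, against 11% of all tested genes in each direction. None of the 8 was at 0 in either muscle. The 8 summed to 266 to 321 CPM per soleus library and 350 to 908 CPM per TA library. Cdh5 was a large part of these sums, at 132 to 211 CPM in soleus and 183 to 641 CPM in TA. Of 8 markers of mural cells, the smooth muscle cells and pericytes of vessels, 3 were tested and 2 were higher in TA, with sums of 402 to 641 CPM in soleus and 595 to 1183 CPM in TA. The mural sums overlapped narrowly. Of the tested markers Esam (endothelial) and Acta2 (mural) did not pass, and of the untested Pecam1 had 20 counts in soleus and 19 in TA. The part of these cells in the Cdh13 difference was not tested.

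**Figure D2:**
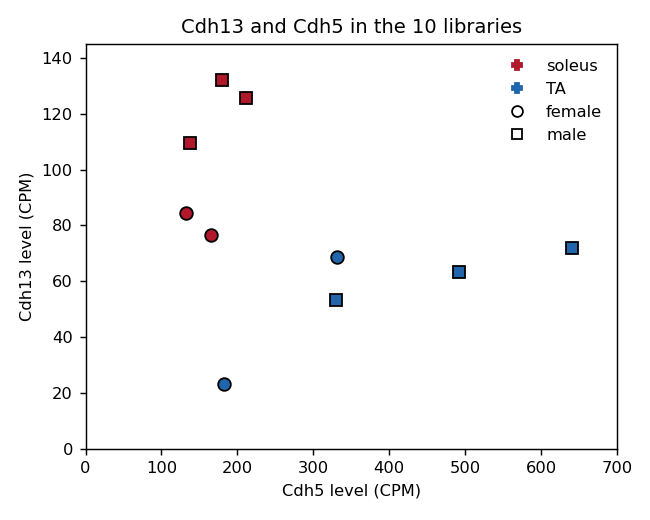
Level of Cdh13 (vertical axis, CPM) against level of Cdh5 (horizontal axis, CPM) in each of the 10 libraries, soleus red and TA blue, circles female and squares male. Soleus libraries sit at the upper left, with Cdh13 from 76.5 to 132 CPM, and TA libraries lower, with Cdh5 from 183 to 641 CPM.

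Adiponectin, the ligand of T-cadherin, was itself read at low level. Adipoq had 9.23 and 3.43 CPM in soleus females and 4.68, 12.0 and 12.3 CPM in soleus males. In TA it had 3.49 and 1.01 CPM in females and 0, 2.32 and 2.31 CPM in males, so the groups overlapped narrowly, at soleus female 2 and TA female 1. The fold change was 2.09 (SE 0.62, edgeR adjusted p = 0.0301). This call was lost without TA male 1, 2 or 3, TA female 2 or soleus female 1, with adjusted p from 0.0115 to 0.100 over 17 alternatives.

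Of the 4 genes of the adiponectin list, all tested, 1 was higher in soleus and 0 in TA, and the median fold change was -0.30, against 0.01 over all genes tested. The classical receptors Adipor1 and Adipor2 and the adaptor Appl1 did not pass. Adipor1 differed by -0.26 (SE 0.28, edgeR adjusted p = 0.570), Adipor2 by -0.36 (SE 0.16, 0.129) and Appl1 by -0.33 (SE 0.17, 0.198). Adipoq is also a marker of adipocytes. Of 6 adipocyte markers 3 were tested and all 3 were higher in soleus, namely Adipoq itself, Cidea (2.52, SE 0.49, edgeR adjusted p = 0.00290) and Car3 (1.00, SE 0.30, edgeR adjusted p = 0.0327), and Lep was at 0 in TA. The call of Car3 was lost without TA male 2, soleus male 3 or TA female 1. The list summed to 3784 to 5867 CPM in soleus and 686 to 3847 CPM in TA, nearly all of it Car3, a carbonic anhydrase that muscle fibers also express. The part of adipocytes in the Adipoq difference was not tested.

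Cdh15 (chromosome 8, 122847966 to 122867397, plus strand), whose single annotated transcript held all its counts, had about the same level in both muscles. In soleus it had 43.5 and 26.3 CPM in females and 24.6, 36.1 and 47.9 CPM in males. In TA it had 31.4 and 54.3 CPM in females and 21.4, 32.4 and 32.4 CPM in males. The ranges overlapped almost wholly. The means were 35.7 ± 10.3 CPM in soleus and 34.4 ± 12.1 CPM in TA (SD, n = 5 each).

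The fold change of Cdh15 was 0.06 (SE 0.27, edgeR adjusted p = 0.906). Its 95% interval ran from -0.51 to 0.64, so a difference within those bounds is not excluded. Its sign turned without TA male 1 (-0.06), soleus male 3 (-0.11), soleus female 1 (-0.03) or TA female 1 (-0.04). Cdh15 was higher in soleus in 4 of 5 pairs. The exception was female 2, with 26.3 CPM in soleus and 54.3 CPM in TA.

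The satellite cell markers gave a mixed picture beside Cdh15. Pax7, the transcription factor that defines these cells, had 19 counts in soleus and 11 in TA and was not tested. Of 8 markers on the list 7 had a count, Calcr was at 0 in both muscles, and of 4 tested 1 was higher in soleus (Sdc4, a syndecan, at 1.12, SE 0.20, edgeR adjusted p = 0.00171) and 0 in TA. The list summed to 83.0 to 320 CPM in soleus and 93.6 to 161 CPM in TA. The high end in soleus is female 2, and without it the soleus sums ended at 177 CPM. Without that library Sdc4 kept its call (0.98, SE 0.18, edgeR adjusted p = 0.00171), and Myod1, a myogenic factor that had not passed (-1.29, SE 0.51, edgeR adjusted p = 0.0926), was higher in TA (-2.30, SE 0.38, edgeR adjusted p = 0.000623).

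**Figure D3:**
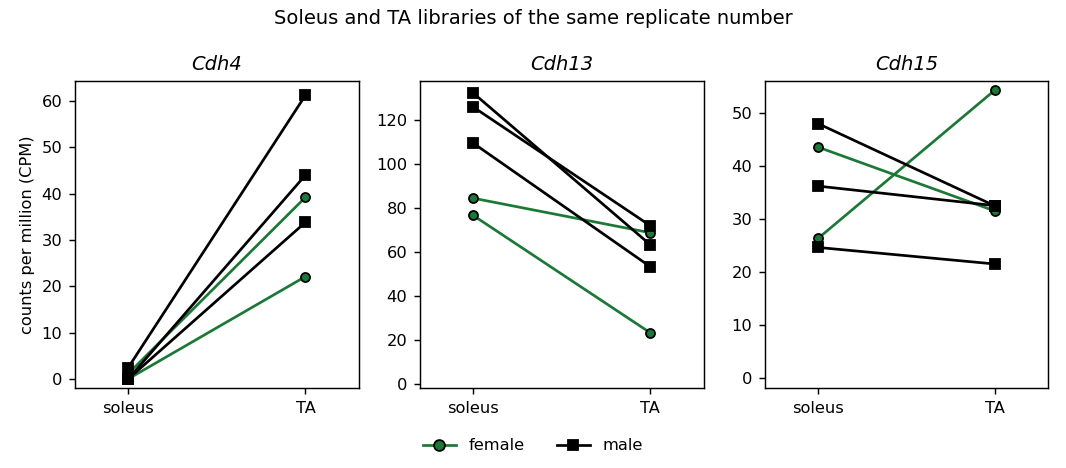
Level in CPM (vertical axis, own scale in each panel) of Cdh4, Cdh13 and Cdh15 in soleus (left) and TA (right), with a line joining libraries of equal sex and replicate number, females green circles and males black squares. All 5 lines go up to TA for Cdh4 and down for Cdh13, and for Cdh15 all but that of female 2 go down.

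Cdh11 (chromosome 8, 102632095 to 102785642, minus strand) was read in 9 of 10 libraries with at most 5 counts each. It had 4 and 4 counts in soleus females and 2, 4 and 4 in soleus males, and 4 and 3 counts in TA females and 5, 0 and 1 in TA males. The levels were 4.49 ± 1.24 CPM in soleus and 2.89 ± 2.35 CPM in TA (SD, n = 5 each), and the groups overlapped. In a fit of all 20009 genes without the filter the fold change was 0.56 (SE 0.62, edgeR adjusted p = 0.695). Of 31 counts, 4 fell on a transcript annotated as a retained intron, and 2 of these were in soleus female 2.

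Stromal cells, in which Cdh11 is known, showed no common direction in their markers: 6 of 8 were tested, with 1 higher in soleus (Cd34) and 1 in TA (Smoc2). Pdgfra, which defines fibro-adipogenic cells, had 3 counts in soleus and 4 in TA. Both calls held without soleus female 2. The list summed to 188 to 9651 CPM in soleus (1397 to 9651 without female 2) and 309 to 3620 CPM in TA. The collagen chain Col1a1 on it averaged 2965 ± 3695 CPM in soleus and 1472 ± 1257 CPM in TA (SD, n = 5 each). Markers of tenocytes, the cells of tendon, leaned to soleus. Of 7 on that list 6 were tested, with 1 higher in soleus (Comp), 0 in TA and a median fold change of 1.43. Without soleus female 2, 5 were higher in soleus and 0 in TA, with a median of 1.88. The part of these cells in the Cdh11 levels was not tested.

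Cdh2 was all but absent from the counts. It had 1 count in soleus, in female 1, and 0 in TA, where 3 counts over the group would be 0.671 CPM. No fold change is given, since both muscles were under that floor. The gene is on chromosome 18 and has 3 annotated transcripts. Its main coding transcript, of 4843 bases, has 953 31-base words of its own, against 3221 for the transcript of Cdh15. Reads could thus have been assigned to it, but fewer of its words were its own. Whether this lowered its counts was not tested, so few counts need not mean little RNA.

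Levels of different genes are ranked here per length, as CPM per kilobase of the transcript with most counts. In soleus the order was Cdh13 (27.9 ± 6.51), Cdh15 (11.0 ± 3.17), Cdh11 (0.795 ± 0.220), Cdh4 (0.113 ± 0.171) and Cdh2 (0.0544 ± 0.122). The ranges of Cdh13 and Cdh15 did not overlap, nor did those of Cdh15 and Cdh11, while the last 3 rest on 18, 3 and 1 counts. In TA the order was Cdh13 (14.8 ± 5.20), Cdh15 (10.6 ± 3.71), Cdh4 (6.28 ± 2.25), Cdh11 (0.512 ± 0.416) and Cdh2 at 0 (SD, n = 5 each, for both muscles). There the ranges of Cdh13 and Cdh15 overlapped, as did those of Cdh15 and Cdh4. Within a library, Cdh13 was above Cdh15 in 4 of 5 TA libraries, the exception being female 2. Cdh15 was above Cdh4 in 5 of 5, by 1.04 to 2.79 times, and Cdh4 above Cdh11 in 5 of 5. The order of Cdh15 and Cdh4 in TA rests on the scaling, since in plain CPM they averaged 34.4 and 40.1. The preparation was called Tag-Seq, and whether scaling by length applies to it was not tested.

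The order was also taken per number of 31-base words that occur in no other transcript. It was the same in TA, and in soleus only the last 2, Cdh4 and Cdh2, changed places. The long Cdh4 transcript had 4940 such words and the Cdh13 transcript 1741.

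The summed length-scaled level of the 5 cadherins overlapped between the muscles, at 29.3 to 45.3 CPM per kilobase in soleus and 29.5 to 35.8 in TA. Cdh13 made up 60.4% to 81.4% of the sum in soleus and 20.7% to 56.5% in TA, and Cdh4 made up 0% to 0.857% in soleus and 10.8% to 28.4% in TA. The share of Cdh15 overlapped, at 17.6% to 36.3% in soleus and 22.3% to 56.6% in TA. These shares are tied to each other by their sum, and that of Cdh4 follows from how it was picked. Of the other 4 members alone Cdh13 made up 60.4% to 81.4% in soleus and 26.2% to 68.7% in TA, which overlap, so the gap between its shares above rests on Cdh4.

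**Figure D4:**
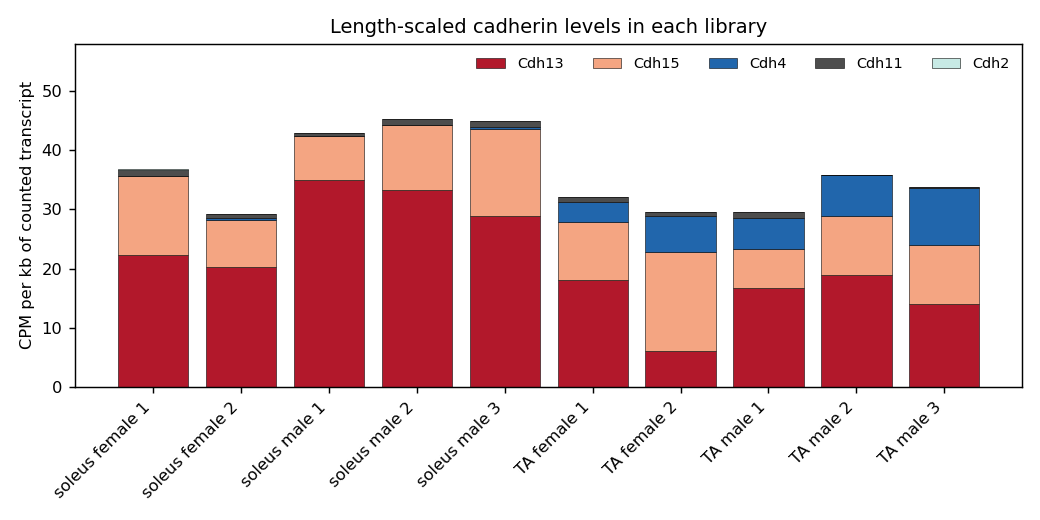
Level of the 5 cadherins in CPM per kilobase of counted transcript (vertical axis), stacked for each of the 5 soleus libraries (left) and 5 TA libraries (right). Cdh13 and Cdh15 fill nearly the whole bar in soleus, and in TA a visible Cdh4 part of 3.46 to 9.59 CPM per kilobase is added.

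Sex was compared within each muscle, a contrast that was not used to pick Cdh4. Cdh4 is left out in soleus, where it had 3 counts and could not have been called. By edgeR, 0 of the other 2 tested members differed between females and males in soleus, where 0.547% of all genes passed (0.352% higher in females, 0.196% higher in males). In TA it was 0 of 3, Cdh4 included, against 0.645% of all genes (0.371% higher in females, 0.274% higher in males). At an unadjusted p under 0.05 the members' count was also 0 in each muscle, against 16.5% of genes in soleus and 11.7% in TA. DESeq2 called 0 in each as well, against 2.41% in soleus and 1.54% in TA. With 2 female libraries per muscle such differences were loosely bounded.

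Cdh4 in TA averaged 30.7 ± 12.1 CPM in females (SD, n = 2) and 46.4 ± 13.9 CPM in males (SD, n = 3), a log2 fold change of female over male of -0.58 (SE 0.45, edgeR adjusted p = 0.682, 95% interval -1.56 to 0.39). For Cdh13 it was -0.61 in soleus (SE 0.34, edgeR adjusted p = 0.394), with 80.4 ± 5.54 CPM in females and 122 ± 11.7 CPM in males. These groups did not overlap, which held for 30% of all tested genes in soleus. In TA it was -0.47 (SE 0.36, edgeR adjusted p = 0.683), with 45.9 ± 32.2 CPM in females and 62.7 ± 9.33 CPM in males. For Cdh15 it was -0.06 in soleus (SE 0.38, edgeR adjusted p = 0.956) and 0.58 in TA (SE 0.37, edgeR adjusted p = 0.597). In the test of whether the sex difference depended on the muscle, edgeR called 0 of Cdh13 and Cdh15 and 0% of all genes, with 0 of these members and 6.86% of genes (351) at an unadjusted p under 0.05. DESeq2 called 0 of the 2 members there and 0.219% of genes. The interaction value was -0.14 for Cdh13 (SE 0.49, edgeR adjusted p = 0.962) and -0.64 for Cdh15 (SE 0.53, edgeR adjusted p = 0.808).

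The partners of classical cadherins were read unevenly. Of 15 catenins and linkers to actin 14 had a count and 3 were tested, of which 0 passed as higher in soleus and 1 as higher in TA, with a median fold change of -0.38 against 0.01 over all genes tested. Vcl (vinculin, which joins alpha-catenin to actin) averaged 77.4 ± 9.53 CPM in soleus and 137 ± 27.0 CPM in TA (SD, n = 5 each), a fold change of -0.82 (SE 0.17, edgeR adjusted p = 0.00403). Its groups met at 93.7 CPM in soleus male 2 and 93.6 CPM in TA female 2. Ctnna1 (alpha-catenin) averaged 168 ± 15.7 CPM in soleus and 219 ± 33.4 CPM in TA, which did not pass (-0.38, SE 0.15, edgeR adjusted p = 0.0852). Without TA female 2 it did (-0.49, edgeR adjusted p = 0.0293, range 0.0111 to 0.242 over 19 alternatives). Not called was also Nectin1, an adhesion receptor (-0.03, SE 0.36, edgeR adjusted p = 0.966). Ctnnb1 (beta-catenin) had only 11 counts in soleus and 5 in TA, and Ctnnd1 (delta-catenin) 1 and 3. Ctnnd2, of the same list, had 25 and 4. Without soleus female 2, Ctnnb1 had 5 counts in soleus and Ctnnd2 had 6.

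Of 9 genes of cadherin maturation and shedding 3 were tested, and edgeR called 0, also at an unadjusted p under 0.05. Furin, which cleaves the propeptide of classical cadherins, differed by 0.14 (SE 0.37), Adam10, which sheds the ectodomain, by -0.11 (SE 0.23) and Mmp14, a membrane metalloprotease, by -0.42 (SE 0.35). Their median was -0.11, and 0.0012 without soleus female 2.

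Among 29 more distant relatives of the cadherin superfamily 22 had a count and 5 were tested, of which none passed as higher in soleus and 2 as higher in TA, with a median of -0.75. Fat4, a giant cadherin of planar polarity, averaged 35.7 ± 11.4 CPM in soleus and 66.6 ± 15.0 CPM in TA (SD, n = 5 each), a fold change of -0.89 (SE 0.22, edgeR adjusted p = 0.0124). Its ligand Dchs1 did not pass (0.22, SE 0.47). Celsr2, a cadherin with a receptor tail, averaged 10.2 ± 3.51 CPM in soleus and 19.0 ± 2.14 CPM in TA, a fold change of -0.87 (SE 0.28, edgeR adjusted p = 0.0417). This call held in 9 of 19 alternatives, with adjusted p from 0.0292 to 0.106, and of the fits that left out 1 library it held only in those without soleus male 1 or soleus female 2. Clstn1, a calsyntenin, was not called (0.52, SE 0.19, edgeR adjusted p = 0.0766), nor was Pcdh17, a protocadherin (-0.75, SE 0.57, edgeR adjusted p = 0.409). Of its 36 counts in soleus 24 were in female 2. Without that library Pcdh17 was higher in TA (-1.73, SE 0.46, edgeR adjusted p = 0.0161, range 0.00487 to 0.629 over 19 alternatives), which made 3 calls on this list in place of 2.

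Desmosomes use cadherins of their own, of which Dsg2, a desmoglein, had 31 counts in soleus and 24 in TA and was not tested. Without soleus female 2, which held 18 of them, soleus had 13. Of 10 desmosomal genes 5 had a count and 1 was tested. This was Dsp (desmoplakin, which ties the junction to intermediate filaments), with 1.32 and 4.57 CPM in soleus females, 19.9, 10.7 and 23.4 CPM in soleus males, and no count in TA. Dsp passed the filter only through its soleus libraries, so its test is not given. Set against 3 counts over all TA libraries as the floor, its 49 pooled soleus counts gave an 18.0-fold higher level. That figure leaves out the counting error of the soleus counts, most of which were in males. Among 6 markers of epithelium and skin, Krt14 was at 0 in both muscles and the sum was 2.46 to 234 CPM in soleus and 1.16 to 4.65 CPM in TA, with the high value owed to Krt18 in soleus male 1 (218 CPM). The part of such cells in the Dsp difference was not tested.

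**Figure D5:**
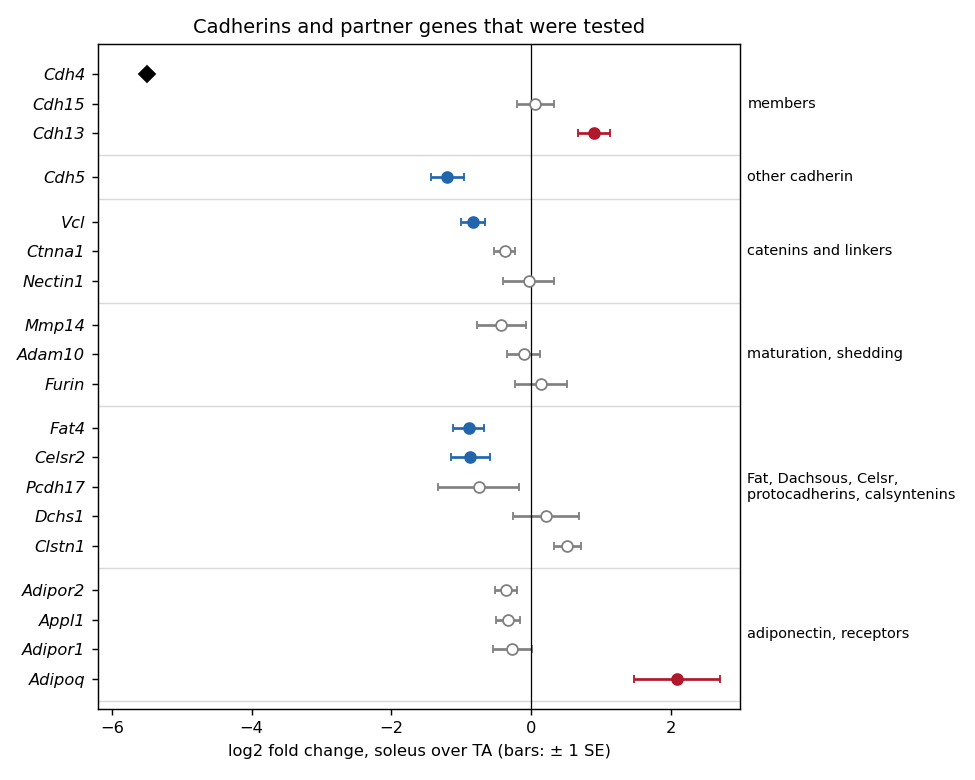
Log2 fold change of soleus over TA (horizontal axis) for the tested members and the tested genes of 5 related lists. Bars are ± 1 SE derived from the edgeR fit. Points are filled red or blue where called higher in soleus or TA and open grey where not called. Cdh4 is drawn as a black diamond without error bar because it was picked on this contrast, Cdh13 (0.91) lies opposite to Cdh5 (-1.20), and Dsp, with no count in TA, is not drawn.

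Of the other 18 cadherins on the list 13 had at least 1 count, and Cdh5 apart none reached 30 counts over the 10 libraries. Cdh19, known from the Schwann cell lineage, had 10 counts in soleus and 14 in TA, and Cdh1 (E-cadherin) 3 and 6. Cdh17 and Cdh22 each had 11 counts in soleus and 2 in TA, and without soleus female 2 they had 3 and 8 in soleus. Of 7 markers of Schwann cells and nerve 2 were tested, with 1 higher in soleus (Ncam1, 1.81, SE 0.54, edgeR adjusted p = 0.0299) and 0 in TA. The call of Ncam1 held without soleus female 2 (1.87, SE 0.59, edgeR adjusted p = 0.0383). Sox10 was at 0 in both muscles, and the list summed to 18.5 to 48.2 CPM in soleus and 14.7 to 30.2 CPM in TA.

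The genes most like Cdh4 across the 10 libraries were all higher in TA, which follows from how Cdh4 was picked. Among 4206 named genes that averaged 10 CPM or more, the highest Pearson r in log2 CPM was 0.98 for each of Mss51, Ccdc6, Gapdh, Actn3 and Phkb, given without a test. Their fold changes ran from -5.74 for Actn3, the alpha-actinin of fast fibers, to -1.65 for Ccdc6, a coiled-coil protein. Mss51, a mitochondrial regulator of fast muscle, averaged 0.970 CPM in soleus and 42.0 CPM in TA. After the mean of each muscle was removed, other genes were nearest, namely Hnrnpa3 (r = 0.92), H2-Q2 (r = 0.90), Kif13a (r = 0.86), Tomm22 (r = 0.86) and Mars2 (r = 0.85), none of which was among the first 5. In soleus this measure rests on 3 counts of Cdh4.

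For Cdh13 the nearest genes were Sptbn1, a spectrin (r = 0.96), Plpp3, a lipid phosphatase (r = 0.94), and Mdh1, the cytosolic malate dehydrogenase (r = 0.94). With the muscle means removed they were Adamts12 (r = 0.97), Ap1m1 (r = 0.95) and Pyurf (r = 0.94). For Cdh15 they were D8Ertd738e (r = 0.92), Fcer1g (r = 0.88) and Ap3b1 (r = 0.87), and with the muscle means removed Mrps28 (r = 0.95), Ap3b1 (r = 0.94) and D8Ertd738e (r = 0.93). The points share their muscle, sex and library depth in each case.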

How the data were processed

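The deposited files hold raw counts per Ensembl transcript, 1 file per library, as whole numbers of at least 1, so an unlisted transcript was taken as 0. Per the labels' protocols, 10 ng of total RNA entered a preparation called Tag-Seq with a Takara SMART-Seq Stranded protocol. The submitters' processing notes name bcl2fastq, Trimmomatic 0.32, FastQC and the build GRCm38.p4. Aligner, counting tool and use of strand: not given in the sources used here.

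Transcripts were matched by identifier to GENCODE M21 (GRCm38) and summed to genes, 40359 of 40414 being matched. The 55 others were left out. Gm20594 held 17.2% to 28.4% of a library and Cep295 3.85% to 6.26%. The transcript sequences are from GENCODE.

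The test was that of edgeR 4.0.16 in R 4.3.3 (filterByExpr by muscle and sex, TMM scaling, quasi-likelihood F test with sex as covariate, Benjamini-Hochberg). Sex and its interaction with muscle came from a fit of the 4 muscle-by-sex group means. CPM uses TMM-scaled library sizes. DESeq2 1.42.0 gave an alternative. Tables and plots used Python 3.11.15 with matplotlib 3.10.9. The fits were tested on simulated data.

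The members and lists were chosen with earlier results of these data known. Genes named were the members, the tested genes of 6 lists of relatives and partners, and the 5 (Cdh4) or 3 (Cdh13, Cdh15) genes of highest Pearson r without gene models. Low-count relatives and markers were named after their values were seen. The labels number replicates and do not name animals. The names of the deposited files give equally numbered soleus and TA libraries of a sex the same code, and each number a code of its own. What the codes stand for is not stated, so p-values measure the spread between these libraries. Deviations from the group means of equally numbered soleus and TA libraries correlated with r of 0.183 to 0.239 in males. In females r was 0.285, where both pairs share 1 value by construction. Unequally numbered male pairs had r of -0.156 to -0.0705, values tied to the others by the shared group means. The equal numbers allowed a fit with the number as a block, which was an alternative to the main fit. Alternatives were other scalings and filters, DESeq2, removal of Gm20594 and Cep295, coding transcripts only, the block, each library left out and, chosen after seeing the data, both libraries of female 2 left out. Intervals of transcript shares and of the count ratio, and floors, cover counting error only. Intervals of fold changes come from the SE of the edgeR fit, so they also cover the spread between libraries.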

Additional observations from a re-analysis of the deposited data

Results flagged for a closer look

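Cdh11 in soleus male 1 was at 2.34 CPM, which is 2 counts, while the other 4 soleus libraries were at 4.57 to 5.35 CPM with 4 counts each. The gap to its nearest neighbour was 0.739 of the whole range of the group. By chance about 1 group in 20 shows such a gap, and 18 groups of 5 libraries were checked.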

How the results depend on the processing

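Between the muscles 1126 genes were called, 892 to 1353 with 1 library left out and 1207 in the fit with the replicate number as a block. The block changed no call of Cdh13, Cdh15, Cdh5, Vcl, Fat4, Celsr2 or Adipoq. Cdh13 kept its call in every alternative run. Cdh4 was picked on this contrast, so its range describes the fit and tests nothing. Its fitted value was -5.50 and ran from -6.40 (without soleus male 3) to -5.15 with 1 library left out. Cdh15 ran from -0.11 to 0.28 there. Counts by sex were unstable: 28 genes in soleus became 123 by DESeq2, 449 with no filter and 1 to 1022 with 1 library left out, and 33 in TA became 79, 240 and 1 to 162, with 58 without both libraries of female 2. The interaction count of 0 became 6 by DESeq2, 58 with no filter, 0 to 79 with 1 library left out and 10 without both libraries of female 2. In soleus the count moved by over 1.5 times without soleus male 1, 2 or 3, soleus female 1 or 2 or TA male 1 or 2, in TA without TA male 1, 2 or 3, soleus male 2 or 3, soleus female 1 or 2 or TA female 2, and the interaction without soleus female 1 or 2. Among the fits without 1 library the highest count of each came without soleus female 1, which leaves soleus female 2, the library that stands apart, as the lone soleus female, assumed to vary like the other groups. Signs of sex differences that were not called also turned. Cdh15 in soleus was -0.06 and ran from -0.55 to 0.27 (positive without soleus male 3 or soleus female 2), with 0.27 without both libraries of female 2, and Cdh13 in TA was -0.47 and ran from -1.44 to 0.10 (positive without TA female 2), with 0.11 without both. Between the muscles, the signs of 5 uncalled genes near 0 turned: with 1 library left out Nectin1 ran from -0.16 to 0.15, Furin from -0.023 to 0.36, Adam10 from -0.27 to 0.041 and Dchs1 from -0.31 to 0.46, Nectin1 was 0.0032 on coding transcripts, and Adipor1 was 0.042 without both libraries of female 2. The causes were not tested. At about 1 CPM per count, Cdh11 and Cdh2 could not be compared.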

Other observations

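The genes of this paragraph were chosen after their values were seen. TA female 2 held the lowest TA level of several adhesion genes and the highest of Cdh15. Cdh13 had 23.1 CPM there, against 53.2 to 71.8 CPM in the other TA libraries, and Cdh5 183 CPM against 329 to 641. Vcl had 93.6 CPM there, Ctnna1 168 CPM and Fat4 44.3 CPM, each the lowest of the 5. Cdh15 had 54.3 CPM, against 21.4 to 32.4 CPM in the others, and Celsr2 was also highest there, at 21.1 CPM. Clstn1, at 18.1 CPM, was not the lowest. Cdh4, at 39.2 CPM, was the median of the TA libraries. No gap of these was large enough to stand apart in a group of 5.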
